A study of Jaltomata procumbens and Jaltomata herrerae with 23 samples.

Results

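The secretory floral nectary of Jaltomata procumbens was compared with its leaf. Jaltomata is a genus of the nightshade family, and its nectary is a ring of tissue in the flower that releases sugary nectar to pollinators. The comparison rests on 4 of the 23 libraries of the study, secretory nectary A and B against leaf B and C. It covers all loci of the deposited table. Leaf A, the remaining leaf library of this species, was left out: the 4 libraries were selected on measured values, the profile of leaf A over all loci, described below, and that choice sets how the p-values here can be read. Values are TPM, a relative transcript level scaled for transcript length and library total, for Arabidopsis loci to which the authors had matched the Jaltomata transcripts.

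The study took nectaries and leaves from 2 species, Jaltomata procumbens and Jaltomata herrerae, and the labels name no transgene, mutation or agent in any group. Plants stood in a growth facility with highs of 25 C by day and lows of 15 C at night. Secretory nectaries were cut by hand from open flowers 3 to 6 h after dawn, pre-secretory ones 24 to 48 h ahead of anthesis, and post-secretory ones once petals had fallen. Leaves were fully expanded, and the labels give no hour of leaf harvest, no plant age and no word on whether replicates came from separate plants, so every p-value measures only the spread between these samples. Here 11 libraries were from herrerae (3 secretory and 2 leaf among them) and 12 from procumbens.

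As background, nectar sugar in flowering plants is thought to come from sucrose made in nectary cells, moved out by the sucrose exporter SWEET9 and split in the cell wall by the invertase CWINV4, which keeps the sugar gradient directed outwards. The YABBY factor CRABS CLAW (CRC) is needed for nectaries to form in Arabidopsis, and the flower maturation factors MYB21 and MYB24 for their function there. A leaf mesophyll cell, in contrast, devotes much of its messenger RNA to light harvesting and carbon fixation.

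Both tissues carried their defining genes. SWEET9 was 4.1% and 4.97% of the listed TPM in secretory A and B, and 0.00393% and 0.00187% in leaf B and C. The photosystem and Calvin cycle lists together were 0.254% and 0.315% in the nectaries and 27.9% and 22.7% in the leaves. The 4 libraries listed 586776 to 733260 TPM in all and had 11871 to 12164 loci at 1 TPM or more. TPM keeps no read depth, so the counting error of a single value is unknown. In such bulk samples fewer cells of a type and less RNA per cell cannot be told apart.

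The left-out leaf A did not carry the leaf profile. Across loci, its log2 values had a Pearson r of 0.702 and 0.72 with leaf B and C, 0.902 and 0.912 with secretory A and B, and 0.935 and 0.937 with post-secretory nectary B and C. Leaf B and C reached 0.957 with each other, and secretory A and B 0.981. SWEET9 stood at 7042 TPM in leaf A, and photosystem and Calvin cycle genes took 1.07% of its listed TPM. For each of the 12 nectary genes plotted by library below, its level lay between those of secretory nectary and those of leaf B and C, so keeping it in the leaf group widens that group's spread.

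A locus was called when limma gave a Benjamini-Hochberg adjusted p under 0.05, in a fit of log2(TPM + 1) after median-ratio rescaling over 20 libraries. These left out leaf A and 2 other procumbens libraries whose values differed from their labelled group, pre-secretory A and post-secretory A. Pre-secretory A was leaf-like, with the Rubisco gene RBCS1A at 33316 and CRC at 2 TPM. It held the photosystem gene PSAG at 1374 TPM and AT2G14900 at 0, nearer to herrerae leaves than to leaf B and C. Post-secretory A had SWEET9 at 42648 TPM, above secretory A and B, and RBCS1A at 11. The origin of these profiles was not tested. Of 13075 loci tested, 7782 were called (59.5%), 3517 higher in nectary (26.9%) and 4265 lower (32.6%). Large differences were mostly on the leaf side: 468 called loci were lower by at least 4 on the log2 scale (16-fold) and 120 were higher by as much. Of the called loci, 7407 had no overlap between the nectary and the leaf libraries. The same count over all 13075 loci tested is not given here, so this number adds no support to the calls. Most list members named below were picked for lack of overlap, so it is no added result for them. The median log2 difference over all loci was −0.03. On deposited TPM without rescaling the median was 0.21, and 56.6% of called loci were higher in nectary, against 45.2% after rescaling.

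Because leaf A and the other 2 left-out libraries were removed for their values, these calls describe the 4 libraries and are not independent tests. With leaf A kept under its label in a fit of all 23 libraries, 3065 loci were called (23.4%), 1286 higher (9.83%) and 1779 lower (13.6%). They included 1285 of the 3517 higher loci (36.5%) and 1778 of the 4265 lower ones (41.7%), and 0 loci were called the opposite way. That fit, and so each result below with leaf A kept, also put back pre-secretory A and post-secretory A. With these 2 back and leaf A still out, 5352 loci were called (40.9%), 2365 higher (18.1%) and 2987 lower (22.8%). The herrerae libraries, 3 secretory and 2 leaf, played no part in the choice and gave 7553 calls (57.8%), 3219 higher (24.6%) and 4334 lower (33.1%). They share the spread estimate of the same fit: with all 23 libraries herrerae had 4682 calls (1836 higher, 2846 lower), and on unscaled TPM 1315 higher and 4300 lower. Below, a count for a list is given first for the 4 procumbens libraries, then with leaf A kept, then for herrerae, and it reads against those shares.

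**Figure D1:**
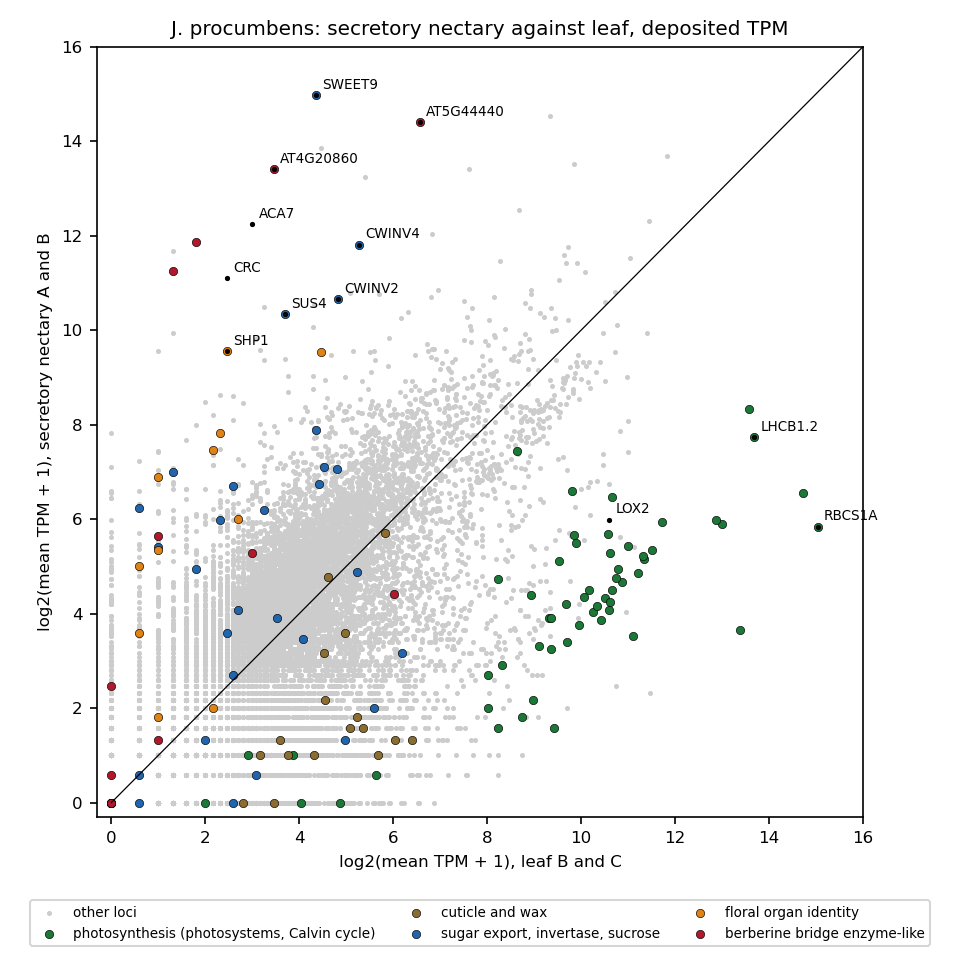
Mean deposited TPM in leaf B and C (x axis) and in secretory nectary A and B (y axis), each as log2(mean TPM + 1), 1 point per locus, with 5 sets of genes in colour and the diagonal marking equal levels. SWEET9 and the berberine bridge enzyme-like loci stand far above the diagonal, and the photosynthesis genes far below it.

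The single most abundant locus of the nectary was the sugar exporter. SWEET9 stood at 28548 and 36418 TPM in secretory A and B and at 28 and 11 in leaf B and C, a log2 difference of 10.33 (SE 0.89, adjusted p = 2.36e-07). The call held with leaf A kept (adjusted p = 0.0246), and herrerae had a difference of 5.43 (adjusted p = 3.59e-05). The 2 tissues were separated by 3 orders of magnitude in procumbens, with no overlap.

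The other SWEET genes, which encode sugar facilitators of the same family, did not move as a block. Of 14 tested, 5 were higher and 4 lower in nectary (2 and 1 with leaf A kept, 5 and 2 in herrerae), with a median log2 difference of −0.13. SWEET13, a sucrose exporter of phloem loading in Arabidopsis, stood at 85 and 64 TPM in nectary and 1 and 0 in leaf (log2 5.42, SE 0.44, adjusted p = 1.51e-07). SWEET7 stood at 41 and 42 against 1 and 1 (log2 4.04, SE 0.41, adjusted p = 1.04e-06), and the senescence-linked SWEET15 at 58 and 67 against 5 and 3 (log2 3.29, SE 0.44, adjusted p = 1.57e-05). All 3 were far less abundant in nectary than SWEET9. The vacuolar SWEET16 went the other way, at 1 and 2 TPM in nectary and 21 and 40 in leaf (log2 −3.92, SE 0.48, adjusted p = 6.34e-06). With leaf A kept SWEET13 (adjusted p = 0.0755) and SWEET7 (0.254) lost their call, and SWEET7 was higher in leaf A, at 173 TPM, than in any of the 4 libraries.

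Invertases, which split sucrose into glucose and fructose, were mostly higher: 5 of 9 tested loci of that list, inhibitors included, were higher and 1 lower (3 and 1 with leaf A kept, 4 and 2 in herrerae; median 1.03). CWINV4 stood at 3262 and 3938 TPM in nectary and 68 and 7 in leaf (log2 6.83, SE 2.09, adjusted p = 0.0105). CWINV2, another cell wall invertase, stood at 1606 and 1626 against 29 and 26 (log2 5.39, SE 0.54, adjusted p = 1.04e-06). Neither gene overlapped between tissues, as the naming rule asked, but the leaf level of CWINV4 differed almost 10-fold between the 2 leaf libraries. The CWINV4 call was lost with leaf A kept (adjusted p = 0.149), without leaf C (0.0939), and when pre-secretory A and post-secretory A were put back (0.0568), and the herrerae contrast did not pass either (log2 3.87, adjusted p = 0.0954). The vacuolar invertase VI1 stood at 100 and 107 TPM against 4 and 6 (log2 3.72, SE 0.26, adjusted p = 3.85e-08). The single lower member was C/VIF2, an invertase inhibitor, at 3 and 3 TPM in nectary and 59 and 35 in leaf (log2 −3.89, SE 0.46, adjusted p = 4.49e-06).

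Genes that make and cleave sucrose were also higher, 5 of 8 with 1 lower (3 and 0 with leaf A kept, 5 and 1 in herrerae; median 2.02). Sucrose synthases cleave sucrose reversibly in the cytosol. SUS4 stood at 1391 and 1192 TPM in nectary and 21 and 3 in leaf (log2 6.7, SE 0.97, adjusted p = 3.07e-05), and SUS3 at 140 and 113 against 2 and 1 (log2 5.32, SE 0.33, adjusted p = 1.23e-08). On the synthetic side, sucrose phosphate synthase SPS1F stood at 117 and 95 against 22 and 19 (log2 1.88, SE 0.39, adjusted p = 0.000652). SPS3F stood at 73 and 71 against 7 and 10 (log2 2.54), and the phosphatase SPP2 at 137 and 135 against 25 and 19 (log2 2.16). Every one of these 5 genes was higher in both nectary libraries than in both leaf libraries, which the naming rule required of all but SPS1F. With leaf A kept, SPS3F (adjusted p = 0.0742) and SPP2 (0.0531) lost their call.

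Sugar uptake carriers summed to 190 and 221 TPM in secretory A and B and to 109 and 124 in leaf B and C. Of 8 tested, 1 was higher and 3 lower (1 and 1 with leaf A kept, 1 and 4 in herrerae), the lower count being near the share over all loci. The higher one was ERDL6, which moves glucose out of the vacuole in Arabidopsis, at 146 and 169 TPM in nectary and 26 and 20 in leaf (log2 2.3, SE 0.42, adjusted p = 0.000237). The hexose importer STP1 stood at 1 and 2 TPM against 15 and 33 (log2 −3.55), and the phloem sucrose loader SUC2 at 1 and 5 against 14 and 35 (log2 −3.07, adjusted p = 8.47e-05). The SUC2 call was lost with leaf A kept (adjusted p = 0.152) and with pre-secretory A and post-secretory A put back (0.0888).

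Starch synthesis genes had counts near those over all loci, and breakdown genes were more often lower than higher. In synthesis, 4 of 18 were higher and 8 lower (0 and 3 with leaf A kept, 3 and 9 in herrerae; median −0.11). In breakdown, 3 of 19 were higher and 10 lower (1 and 4, and 2 and 12; median −0.64). APL1, the large subunit of ADP-glucose pyrophosphorylase, which commits carbon to starch in leaves, stood at 3 and 2 TPM in nectary and 298 and 142 in leaf (log2 −6.24, SE 0.46, adjusted p = 5.33e-08). The plastid starch phosphorylase PHS1 stood at 21 and 31 against 177 and 105 (log2 −2.8), and the debranching enzyme LDA at 0 and 1 against 18 and 9 (log2 −3.48). Nectary was higher for BAM1, a plastid beta-amylase, at 339 and 278 TPM against 39 and 22 (log2 2.91, SE 0.59, adjusted p = 0.000573). It was also higher for GPT1, which brings glucose phosphate into non-green plastids, at 149 and 115 against 17 and 29 (log2 2.07). The GPT1 call was lost with leaf A kept (adjusted p = 0.141) and with the other 2 libraries put back (0.1).

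**Figure D2:**
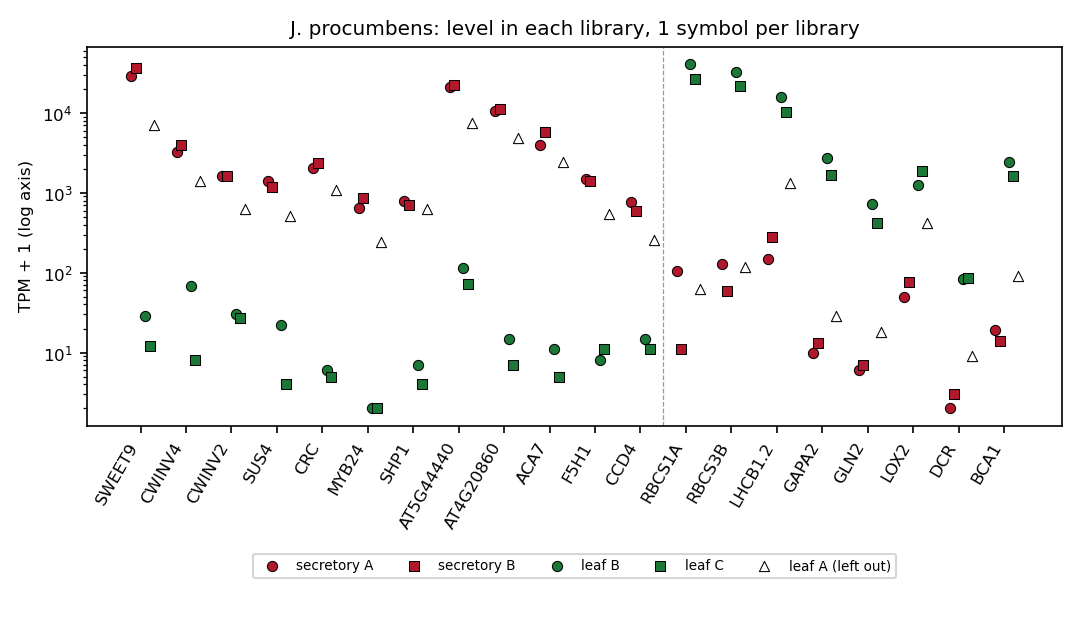
TPM + 1 on a log axis for 20 genes (x axis) in secretory nectary A and B (red), leaf B and C (green) and the left-out leaf A (white triangles). The 12 genes left of the dashed line are higher in both nectary libraries and the 8 on the right lower; leaf A is nearer the nectary levels than the leaf levels for most of them.

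Nectary and flower regulators followed. Of 8 tested in the list of nectary and flower maturation regulators, 4 were higher and 1 lower (2 and 0 with leaf A kept, 3 and 3 in herrerae; median 1.14). CRC stood at 2054 and 2358 TPM in nectary and 5 and 4 in leaf (log2 8.24, SE 0.47, adjusted p = 8.26e-09; 0.0466 with leaf A kept). MYB24 stood at 649 and 860 against 1 and 1 (log2 8.17, SE 0.73, adjusted p = 3.42e-07). MYB21 was far less abundant than its relative, at 15 and 20 TPM, with 0 in both leaves (log2 3.91, SE 0.46, adjusted p = 4.34e-06; 0.0672 with leaf A kept). In leaf A these 3 genes stood at 1077, 243 and 9 TPM.

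Floral organ identity genes, MADS-box factors that specify the whorls of the flower, were the list with the highest median (4.21). Of 13 tested, 9 were higher and 0 lower, against 11 and 1 in herrerae; with leaf A kept a single one stayed called. SHP1, a carpel factor that also promotes nectary formation in Arabidopsis, stood at 799 and 710 TPM in nectary and 6 and 3 in leaf (log2 6.75, SE 0.37, adjusted p = 6.12e-09). SEP1, a partner of organ identity factors, stood at 765 and 719 against 26 and 16 (log2 4.69), SEP3 at 117 and 118 against 2 and 0 (log2 5.8) and SEP4 at 218 and 237 against 7 and 1 (log2 5.46). AP1, a sepal and petal factor, stood at 188 and 166 against 5 and 2 (log2 4.99, SE 0.28, adjusted p = 7.02e-09). The petal and stamen factor PI was near the detection limit in both tissues, at 2 and 3 TPM against 1 and 1 (log2 0.51, adjusted p = 0.578). In leaf A, SHP1 stood at 631, SEP3 at 146 and AP1 at 204 TPM, levels like those of the nectary, and of the 5 called genes AP1 alone kept its call there (adjusted p = 0.0302; 0.0584 to 0.0806 for the others).

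Among leaf development genes, 2 of 8 were higher and 2 lower (1 and 1 with leaf A kept, 3 and 2 in herrerae). STM, which maintains meristems, stood at 67 and 54 TPM in nectary and 2 and 1 in leaf (log2 4.27, SE 0.26, adjusted p = 1.31e-08; 0.125 with leaf A kept). The YABBY gene YAB5 stood at 721 and 702 against 60 and 114 (log2 2.65). TCP4, which promotes leaf cell differentiation, stood at 1 and 1 against 82 and 37 (log2 −5.09, SE 0.54, adjusted p = 1.77e-06).

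Another large block of the nectary was a family of oxidases. Berberine bridge enzyme-like proteins are secreted flavin enzymes, some of which oxidise sugars or monolignols. Their 12 tested loci were 5.55% and 5.37% of listed TPM in nectary and 0.0313% and 0.0233% in leaf. Of the 12, 6 were higher and 1 lower (3 and 0 with leaf A kept, 4 and 2 in herrerae; median 1.89). AT5G44440 stood at 21364 and 22382 TPM against 115 and 72 (log2 7.46, SE 1.42, adjusted p = 0.000349), and AT4G20860 at 10586 and 11155 against 14 and 6 (log2 9.63, SE 1.39, adjusted p = 3.11e-05). AT1G26390 stood at 3900 and 3555 against 5 and 0 (log2 10.27, SE 1.19, adjusted p = 3.78e-06), and AT5G44360 at 2699 and 2196 against 2 and 1 (log2 9.58, SE 1.28, adjusted p = 1.48e-05). These 4 loci separated the tissues without overlap, as the naming rule required. Among them AT5G44360 alone lost its call with leaf A kept (adjusted p = 0.0538). The single lower one, AT1G11770, stood at 23 and 18 TPM against 77 and 50 (log2 −1.98, SE 0.51, adjusted p = 0.00358; 0.178 with leaf A kept and 0.0704 with pre-secretory A and post-secretory A put back). Related transcripts can be split or merged when matched to Arabidopsis loci, so the level of a single family member is less certain than the family sum.

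Carbonic anhydrases, which interconvert carbon dioxide and bicarbonate, stood on both sides. Of 6 tested, 5 were lower and 1 higher (2 and 0 with leaf A kept, 4 and 0 in herrerae). The alpha-type ACA7 stood at 3992 and 5762 TPM in nectary and 10 and 4 in leaf (log2 8.92, SE 2.3, adjusted p = 0.00355; 0.141 with leaf A kept). The other alpha-type member, ACA1, was lower, at 1 and 0 TPM against 9 and 13 (log2 −3.26, adjusted p = 9.28e-05; 0.245 with leaf A kept and 0.096 with pre-secretory A and post-secretory A put back). The ACA7 contrast in herrerae, where the secretory libraries ranged from 0 to 470 TPM, did not pass (log2 4.07, adjusted p = 0.111). The beta-type BCA1, the abundant chloroplast form, stood at 18 and 13 against 2402 and 1598 (log2 −7.33, SE 1.57, adjusted p = 0.000915; 0.102 with leaf A kept), and BCA4 at 5 and 5 against 126 and 67 (log2 −4.33, SE 0.4, adjusted p = 4.81e-07).

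Phenylpropanoid genes, which lead to lignin and its monolignol precursors, were split, with 8 of 17 higher and 4 lower (3 and 1 with leaf A kept, 6 and 4 in herrerae; median 0.66). F5H1, which directs monolignols to the syringyl type, stood at 1492 and 1394 TPM in nectary and 7 and 10 in leaf (log2 6.84, SE 1.07, adjusted p = 6.44e-05). CAD5, the last reductase of the route, stood at 702 and 729 against 20 and 29 (log2 4.4, SE 0.66, adjusted p = 4.42e-05). The methyltransferases COMT1, at 2762 and 2875 against 292 and 326 (log2 2.75, adjusted p = 0.00967), and CCoAOMT1, at 298 and 399 against 28 and 28 (log2 3.14), were higher as well. Both lost the call with leaf A kept (adjusted p = 0.172 and 0.0705), and COMT1 also with the other 2 libraries put back (0.133) or without leaf B (0.0559). The flavonoid list, which shares the same entry route, had 0 of 11 higher and 7 lower (0 and 5 with leaf A kept, 1 and 7 in herrerae). Its largest change was in DFR, an anthocyanin enzyme, at 4 and 5 TPM against 65 and 109 (log2 −4.34, SE 0.5, adjusted p = 3.69e-06).

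Carotenoid genes stood on both sides. Of 17, 9 were higher and 4 lower (2 and 3 with leaf A kept, 11 and 4 in herrerae; median 1.51). The cleavage dioxygenase CCD4, which breaks carotenoids down, stood at 762 and 585 TPM against 14 and 10 (log2 5.28, SE 0.89, adjusted p = 0.000121), and CCD1 at 1731 and 1944 against 145 and 100 (log2 3.48, SE 0.7, adjusted p = 0.000541; 0.0645 with leaf A kept). The beta-ring hydroxylase BCH2 stood at 41 and 37 against 2 and 1 (log2 3.66, adjusted p = 2.85e-05; 0.0783 with leaf A kept). Lutein-branch genes were on the leaf side, with LCYE at 2 and 2 against 128 and 76 (log2 −5.38, SE 0.64, adjusted p = 4.61e-06) and LUT1 at 0 and 0 against 36 and 19 (log2 −4.89, SE 0.35, adjusted p = 4.59e-08). PSY, which catalyses the entry step, stood at 233 and 116 against 93 and 45 and did not pass (log2 0.9, adjusted p = 0.302).

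**Figure D3:**
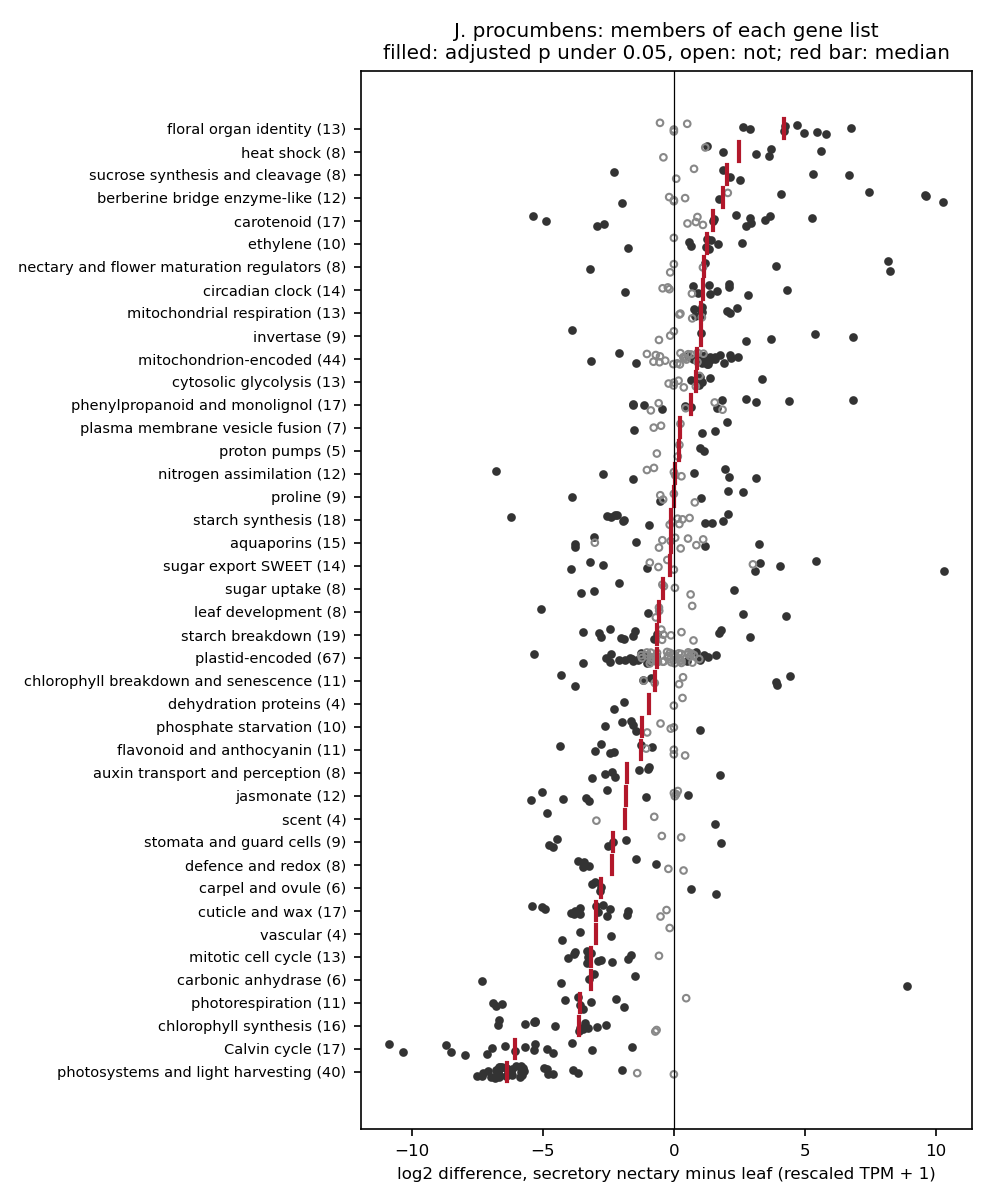
Log2 difference, secretory nectary minus leaf on rescaled TPM + 1 (x axis), for every tested member of each gene list with at least 4 members (y axis, number tested in brackets); filled points passed the adjusted p threshold, open ones did not, and red bars are medians. Medians run from −6.39 for photosystems and light harvesting to 4.21 for floral organ identity.

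Photosynthesis genes had the lowest medians of all lists. Of 40 photosystem and light harvesting loci, 38 were lower in nectary and 0 higher (median −6.39), and all 17 Calvin cycle loci were lower (median −6.06). In herrerae the counts were 37 of 40 and 17 of 17. With leaf A kept, which had 1.07% of its TPM in these lists, the counts were 9 and 2. RBCS1A, a Rubisco small subunit, stood at 103 and 10 TPM in nectary and 40642 and 26660 in leaf (log2 −10.35, SE 1.66, adjusted p = 7.68e-05; 0.0908 with leaf A kept). RBCS3B stood at 128 and 58 against 32526 and 21901 (log2 −8.69, SE 0.69, adjusted p = 1.21e-07), and RBCS1B at 22 and 1 against 14215 and 7186 (log2 −10.89, SE 2.23). The small subunit copies are near-identical, so single loci are less certain than their sum, and secretory A held about 10 times as much RBCS1A as secretory B.

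The LHCB1 genes encode the main chlorophyll-binding antenna proteins and, like the Rubisco copies, are closely related. LHCB1.2 stood at 148 and 278 TPM in nectary and 16012 and 10326 in leaf (log2 −6.42, SE 0.64, adjusted p = 9.65e-07), LHCB1.1 at 52 and 66 against 9882 and 6607 (log2 −7.52) and LHCB1.3 at 49 and 75 against 8731 and 6285 (log2 −7.34). The photosystem subunits PSAH2, at 50 and 71 against 4043 and 2692 (log2 −6.2), and PSBW, at 23 and 56 against 3164 and 2715 (log2 −6.74), were lower to the same degree and kept their call with leaf A (adjusted p = 0.0416 and 0.0365). In the Calvin cycle GAPA2 stood at 9 and 12 against 2748 and 1686 (log2 −7.97, SE 0.86), and the plastid aldolase FBA1 at 4 and 0 against 780 and 592 (log2 −8.5, SE 0.83). Transketolase TKL1, which also serves the pentose phosphate pathway, was lower by less, at 179 and 167 against 493 and 305 (log2 −1.6, SE 0.33, adjusted p = 0.000661; 0.295 with leaf A kept and 0.0503 on unscaled TPM). With leaf A kept the adjusted p was 0.0489 for LHCB1.1 and 0.0639 to 0.117 for RBCS3B, RBCS1B, LHCB1.2, LHCB1.3, GAPA2 and FBA1.

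Pathways tied to photosynthesis went the same way. Photorespiration had 10 of 11 lower and 0 higher (1 lower with leaf A kept, 10 in herrerae), with GLDH1, a glycine decarboxylase subunit, at 0 and 0 TPM against 158 and 74 (log2 −6.9, SE 0.34, adjusted p = 3.35e-09). The peroxisomal aminotransferase AGT1 stood at 2 and 1 against 266 and 134 (log2 −6.58; adjusted p = 0.0772 with leaf A kept). Chlorophyll synthesis had 14 of 16 lower and 0 higher (11 lower with leaf A kept, 16 in herrerae), among them PORB, a protochlorophyllide reductase, at 36 and 60 against 2069 and 1583 (log2 −5.68), PORA at 3 and 4 against 354 and 356 (log2 −6.68) and CHLM at 0 and 2 against 215 and 109 (log2 −6.71). Plastid glutamine synthetase GLN2, which recaptures photorespiratory ammonium, stood at 5 and 6 against 722 and 421 (log2 −6.8, SE 0.34, adjusted p = 3.39e-09). All 6 genes were lower in both nectary libraries than in either leaf, as the naming rule required.

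Plastid-encoded loci had a smaller median difference. The 67 tested took 0.231% and 0.204% of listed TPM in nectary and 0.25% and 0.233% in leaf; 7 were higher and 22 lower (0 and 6 with leaf A kept, 11 and 30 in herrerae; median −0.64). Libraries were made from polyadenylated RNA, which samples organelle transcripts poorly. Mitochondrion-encoded loci had 23 of 44 higher and 3 lower (2 and 1, and 21 and 1; median 0.89). Nuclear genes of mitochondrial respiration had 9 of 13 higher and 0 lower (2 and 0 with leaf A kept, 9 and 1 in herrerae; median 1.05), with cytochrome c gene CYTC-2 at 1065 and 1106 TPM against 176 and 218 (log2 2.03, SE 0.25, adjusted p = 7.45e-06; 0.124 with leaf A kept and 0.101 with the other 2 libraries put back). The complex II subunit SDH2-2 stood at 322 and 335 against 43 and 46 (log2 2.42, SE 0.29, adjusted p = 4.92e-06; 0.0266 with leaf A kept). Cytosolic glycolysis had 6 of 13 higher and 0 lower (0 and 0, and 5 and 0; median 0.84), led by aldolase FBA8 at 710 and 608 against 36 and 60 (log2 3.36, SE 0.37, adjusted p = 2.69e-06; 0.107 with leaf A kept).

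Nitrogen genes were divided, with 4 of 12 higher and 3 lower (0 and 1 with leaf A kept, 2 and 4 in herrerae; median 0.03). The cytosolic glutamine synthetase GLN1;2 stood at 1719 and 1624 TPM in nectary and 270 and 298 in leaf (log2 2.12, SE 0.32, adjusted p = 4.77e-05), opposite to plastid GLN2. Nitrate reductase NIA2 stood at 165 and 106 against 12 and 9 (log2 3.12, SE 0.96, adjusted p = 0.0111). With leaf A kept, at 1463 and 125 TPM in that library, both calls were lost (adjusted p = 0.202 and 0.154), and NIA2 was also lost without secretory A (0.0683). GLN1;2 had an adjusted p of 0.0968 with the other 2 libraries put back. Proline genes had 3 of 9 higher and 2 lower (1 and 1, and 4 and 1; median 0). OAT, which feeds ornithine carbon towards glutamate and proline, stood at 69 and 52 against 10 and 4 (log2 2.63, SE 0.35, adjusted p = 1.41e-05), and the proline transporter ProT2 at 0 and 0 against 18 and 9 (log2 −3.91). P5CR, the last enzyme of proline synthesis, stood at 18 and 17 against 21 and 17 and was not called (log2 −0.52, adjusted p = 0.293).

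Surface and epidermal genes were lower. For cuticle and wax, 15 of 17 were lower and 0 higher (11 lower with leaf A kept, 12 lower and 1 higher in herrerae; median −2.97). DCR, a cutin acyltransferase, stood at 1 and 2 TPM in nectary and 83 and 85 in leaf (log2 −5.42, SE 0.58, adjusted p = 1.68e-06), CER4, which makes wax alcohols, at 1 and 2 against 69 and 60 (log2 −5.04), LACS1 at 1 and 1 against 58 and 42 (log2 −4.93) and CER6, a fatty acid elongase, at 2 and 2 against 58 and 22 (log2 −3.94). These 4 kept their call with leaf A, at adjusted p of 0.0231 to 0.04, and leaf A held 8, 10, 6 and 3 TPM of them. Of 9 stomatal loci 6 were lower and 1 higher (5 and 1 with leaf A kept, 5 and 2 in herrerae), and floral nectaries often release nectar through modified stomata. EPF2 and EPFL9, peptides that set stomatal density, stood at 0 and 0 against 34 and 17 (log2 −4.78) and at 2 and 0 against 34 and 29 (log2 −4.45), and the protease SDD1 at 3 and 4 against 110 and 63 (log2 −4.6).

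Markers of other cell types were measured beside these results. Of 13 mitotic cell cycle loci 12 were lower in nectary and 0 higher (7 lower with leaf A kept, 10 in herrerae), with CYCB1;4, a mitotic cyclin, at 1 and 1 TPM against 36 and 19 (log2 −4.04, SE 0.66, adjusted p = 9.63e-05). The summed level of that list was 33 and 30 TPM in nectary and 356 and 159 in leaf, although leaves were labelled as fully expanded. Vascular markers summed to 6 and 7 TPM in nectary and 56 and 35 in leaf, 3 of 4 being lower (2 with leaf A kept, 3 in herrerae). The xylem protease XCP2 stood at 0 and 0 against 20 and 14 (log2 −4.27) and the phloem gene SEOR1 at 1 and 1 against 24 and 15 (log2 −3.59). Carpel and ovule markers summed to 21 and 23 TPM against 58 and 49, and 2 were at 0 in both nectary libraries. Of 6 tested, 2 were higher and 4 lower (0 and 3 with leaf A kept, 1 and 4 in herrerae). The 2 pollen and anther markers among the deposited loci summed to 16 and 20 against 22 and 12. The 2 trichome markers summed to 3 and 3 against 12 and 7. The full lists hold 13 pollen and anther, 6 trichome, 15 vascular and 13 carpel and ovule markers. Those not among the deposited loci were not measured. The part of these cell types in the other differences was not tested.

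Hormone lists differed in direction. Jasmonate genes had 7 of 12 lower and 1 higher (4 and 0 with leaf A kept, 6 and 0 in herrerae; median −1.81). LOX2, the plastid lipoxygenase at the start of the route, stood at 49 and 76 TPM in nectary and 1235 and 1883 in leaf (log2 −5.05, SE 0.52, adjusted p = 1.39e-06), LOX3 at 7 and 6 against 228 and 277 (log2 −5.47), the ligase OPCL1 at 2 and 3 against 50 and 52 (log2 −4.25), and the cyclase AOC4 at 4 and 9 against 44 and 56 (log2 −3.23). All 4 kept their call with leaf A (adjusted p of 0.0233 to 0.0427). Auxin genes had 7 of 8 lower and 1 higher (3 and 0, and 5 and 0), with the efflux carrier PIN3 at 1 and 5 against 25 and 21 (log2 −3.11). Ethylene genes had 8 of 10 higher and 1 lower (3 and 1, and 8 and 0; median 1.26). The receptor ERS1 stood at 43 and 43 against 5 and 4 (log2 2.6, SE 0.29, adjusted p = 2.61e-06). The ethylene-forming oxidase ACO4 stood at 405 and 601 against 100 and 199 (log2 1.36, adjusted p = 0.00702). The ACO4 call was lost with leaf A kept (adjusted p = 0.337), without leaf B (0.143) and without secretory B (0.0721).

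Chlorophyll breakdown and senescence genes were mixed, with 3 of 11 higher and 4 lower (1 and 0 with leaf A kept, 1 and 5 in herrerae). The 3 higher were NYE1, which takes magnesium from chlorophyll, at 69 and 67 TPM against 3 and 2 (log2 3.92, SE 0.61, adjusted p = 5.73e-05), and the senescence regulators NAC092, at 30 and 21 against 0 and 0 (log2 4.42, SE 0.61, adjusted p = 2.06e-05), and NAP, at 19 and 35 against 1 and 0 (log2 3.95, SE 1.19, adjusted p = 0.00943). Among the lower ones, the senescence protease SAG12 stood at 1 and 1 TPM in nectary, 6 in leaf B and 154 in leaf C (log2 −4.32, SE 1.52, adjusted p = 0.0231). Its call was lost in 6 alternatives: with leaf A kept (0.153), with pre-secretory A and post-secretory A put back (0.224), with the 4 libraries alone (0.0694), and without leaf C (0.334), secretory A (0.0783) or secretory B (0.0768). Leaf A held 121, 19 and 176 TPM of NYE1, NAC092 and NAP, and NYE1 (adjusted p = 0.0649) and NAP (0.44) lost their call with it. NAP was also lost without leaf C (0.0665) or without secretory B (0.0614).

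Water channels, pumps and vesicle genes were measured next. Of 15 aquaporins 2 were higher and 4 lower (0 and 3 with leaf A kept, 3 and 4 in herrerae; median −0.12). TIP1;1, of the vacuole membrane, stood at 100 and 103 TPM in nectary and 648 and 1633 in leaf (log2 −3.76, SE 0.52, adjusted p = 2.09e-05), and PIP2;7 at 60 and 56 against 408 and 315 (log2 −3.04). PIP1;2 stood at 95 and 115 against 9 and 6 (log2 3.24, SE 1.01, adjusted p = 0.0114), a call lost with leaf A kept (0.128), without leaf C (0.0552) and without secretory B (0.0543). Among proton pumps 2 of 5 were higher and 0 lower (0 and 0, and 2 and 0), including the plasma membrane pump AHA2 at 86 and 92 against 33 and 32 (log2 0.99, SE 0.28, adjusted p = 0.00677; 0.289 with leaf A kept and 0.185 with the other 2 libraries put back). Of 7 vesicle fusion genes 3 were higher and 1 lower (3 and 1, and 2 and 1), with SNAP33, a fusion protein of secretion, at 73 and 63 against 11 and 12 (log2 2.04, SE 0.35, adjusted p = 0.00014).

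Stress and time-of-day genes were also measured. Heat shock genes had 6 of 8 higher and 0 lower (4 and 0 with leaf A kept, 7 and 0 in herrerae; median 2.5). HSP23.6, a mitochondrial small heat shock protein, stood at 435 and 345 TPM in nectary and 6 and 4 in leaf (log2 5.62, SE 0.85, adjusted p = 4.62e-05), HSP17.6II at 165 and 205 against 11 and 8 (log2 3.73) and the factor HSFA2 at 78 and 83 against 4 and 4 (log2 3.62). Clock genes had 9 of 14 higher and 1 lower (2 and 0, and 8 and 2; median 1.13), with the morning factor RVE8 at 37 and 34 against 0 and 1 (log2 4.32, SE 0.72, adjusted p = 0.000115; 0.0485 with leaf A kept) and GI at 278 and 297 against 102 and 65 (log2 1.37, adjusted p = 0.00445; 0.0863 with leaf A kept). As the hour of leaf harvest is not given, tissue and hour cannot be told apart for genes that follow the day. Defence and redox genes had 6 of 8 lower and 0 higher (1 lower with leaf A kept, 5 lower and 1 higher in herrerae). FSD1, a chloroplast superoxide dismutase, stood at 33 and 36 against 332 and 336 (log2 −3.67, SE 0.32, adjusted p = 2.67e-07). The chitinase PR3 differed between the leaves themselves, at 138 TPM in leaf B and 837 in leaf C, with 45 and 39 in nectary (log2 −3.42, adjusted p = 0.0101). It lost its call with leaf A kept (0.15), without leaf C (0.163) and with the other 2 libraries put back (0.25).

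The remaining lists were small, and their counts read against the 59.5% of all loci that were called. Dehydration proteins had 2 of 4 lower and 0 higher (0 and 0 with leaf A kept, 2 higher and 0 lower in herrerae). Phosphate starvation genes had 5 of 10 lower and 1 higher (1 lower and 0 higher with leaf A kept, 7 lower and 0 higher in herrerae). Scent genes had 1 of 4 lower and 1 higher (1 lower and 0 higher with leaf A kept, 2 lower and 1 higher in herrerae). The next 4 loci lie outside all lists and are given by code. AT2G14900 stood at 23371 and 23880 TPM in nectary and 382 and 907 in leaf (log2 4.89, SE 0.74, adjusted p = 4.59e-05; 0.246 with leaf A kept and 0.175 with the other 2 libraries put back), and AT5G46900 at 13241 and 16492 against 14 and 28 (log2 9.04, SE 1.22, adjusted p = 1.66e-05; 0.0307 with leaf A kept). On the leaf side AT5G20630 stood at 8 and 0 against 3613 and 2063 (log2 −10.1, SE 1.76; 0.0796 with leaf A kept), and AT2G40880 at 7 and 2 against 939 and 2510 (log2 −8.65, SE 1.36; 0.0991 with leaf A kept). The 10 most abundant loci of the nectary were 21% and 22.4% of its listed TPM and 0.763% and 1.11% in leaf. Of all 13170 loci, 33 were listed at 0 in both leaves with at least 10 TPM in both nectaries, and 74 the reverse. As TPM were rounded to whole numbers, a listed 0 can stand for a low level.

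The nectary genes were not limited to the secretory stage. SWEET9 stood at 16197, 26019 and 2904 TPM in pre-secretory nectary B, C and D, and at 3656 and 806 in post-secretory B and C. CRC stood at 1089, 1627 and 968 before secretion and 421 and 156 after it, and SHP1 at 630, 735 and 629 and then 326 and 302. Every one of these values was above both leaf libraries. AT5G44440 ranged more, at 4177, 12087 and 130 before secretion and 2429 and 550 after it, so that pre-secretory D stood barely above leaf B. CWINV4 followed the same order, at 1402, 2404 and 6 before and 392 and 98 after, with pre-secretory D below both leaves. BAM1 stood at 27, 118 and 30 TPM before secretion, which overlaps the leaf levels, and 72 and 58 after it. RBCS3B stayed low, at 94, 48 and 65 before and 230 and 416 after.

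**Figure D4:**
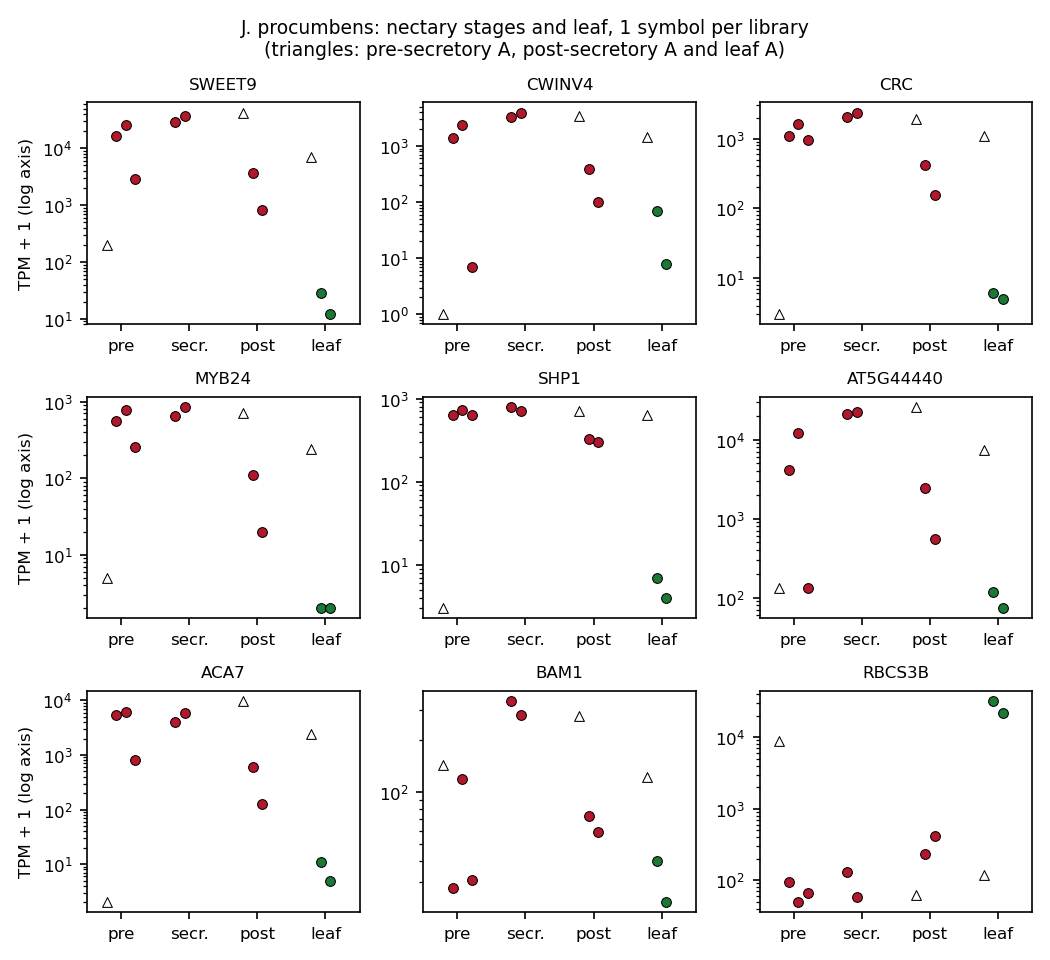
TPM + 1 on a log axis for 9 genes in the procumbens libraries, by labelled tissue (pre-secretory, secretory and post-secretory nectary, leaf), 1 symbol per library; white triangles are leaf A and the A libraries of the pre-secretory and post-secretory stages. Pre-secretory A aside, SWEET9, CRC and SHP1 are above leaf B and C in every nectary library, and the leaf A level of these 3 genes lies within the range of the nectary libraries.

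The same contrast in herrerae used other libraries and a shared estimate of the spread. Of the procumbens higher calls, 1873 were also higher in herrerae (53.3% of the procumbens calls and 58.2% of the herrerae ones), and 2844 were lower in both (66.7% and 65.6%). Calls in opposite directions numbered 225 and 177. Across loci, which are not independent replicates, Pearson's r between the log2 differences was 0.687 and Spearman's rho 0.626. Tested directly, the tissue difference was not the same in the 2 species at 3986 loci (30.5%), 2062 above in procumbens (15.8%) and 1924 below (14.7%). On unscaled TPM the split was 3031 above and 518 below, and with all 23 libraries 379 loci were called. Of the 3986 loci called in the 20-library fit, 358 (8.98%) were at 0 in every library of 1 species in that fit.

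The berberine bridge enzyme-like loci held the largest species differences among the lists, with 9 of 12 called. AT4G20860 had a nectary-leaf difference of −0.11 in herrerae, where secretory libraries stood at 181, 915 and 183 TPM and leaves at 383 and 491, and the procumbens difference was 9.74 greater on the log2 scale (adjusted p of that species difference 0.00158). AT1G26390 and AT5G44440 did not pass in herrerae either (log2 1.37 and 0.92, adjusted p = 0.302 and 0.576) and the species difference was called (adjusted p = 0.000976 and 0.0185). AT1G11770 reversed: it was higher in herrerae nectary (log2 6.67, adjusted p = 2.28e-08) and lower in that of procumbens (adjusted p of the species difference 1.29e-06).

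Exporters also divided. SWEET9 differed more between tissues in procumbens than in herrerae, by 4.89 (adjusted p = 0.00707), with herrerae secretory libraries at 10399, 12296 and 8289 TPM and leaves at 218 and 424. SWEET11, a phloem sucrose exporter in Arabidopsis, stood at 5548, 8540 and 3467 TPM in herrerae nectary and 179 and 393 in its leaves (log2 4.73, adjusted p = 4.24e-05). In procumbens it stood at 36 and 21 against 17 and 56 (log2 −0.59, adjusted p = 0.547), and the species difference was −5.32 (adjusted p = 0.00197). SWEET4 went from 3.75 in herrerae to −1.02 in procumbens (adjusted p = 0.0122 there, 0.47 with leaf A kept, 0.433 with the other 2 libraries put back, 0.183 on unscaled TPM, 0.13 without leaf C, and 0.052 and 0.0516 without secretory A or B), a species difference of −4.76 (adjusted p = 3.76e-06). P5CR differed as well: herrerae secretory libraries stood at 338, 373 and 372 TPM and leaves at 10 and 8 (log2 5.59), a species difference of −6.11 (adjusted p = 3.76e-06).

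Some species differences rest on loci listed at 0 in both tissues of 1 species. SWEET13, SDD1 and AT2G14900 were listed at 0 in every herrerae secretory and leaf library, and SHP2, PSAG and LEA7 at 0 in the 4 procumbens libraries. PSAG encodes a photosystem I subunit and stood at 1460 and 1692 TPM in herrerae leaves. No fold is given for these loci in the species that lists 0, and whether the 0 comes from how transcripts were matched to loci was not tested. The species difference was not called for RBCS1A, CWINV4, ACA7, MYB24, SUS4, SEP1, DCR or CAD5 (adjusted p of 0.0632 to 0.816), which does not show that the species were alike at them.

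**Figure D5:**
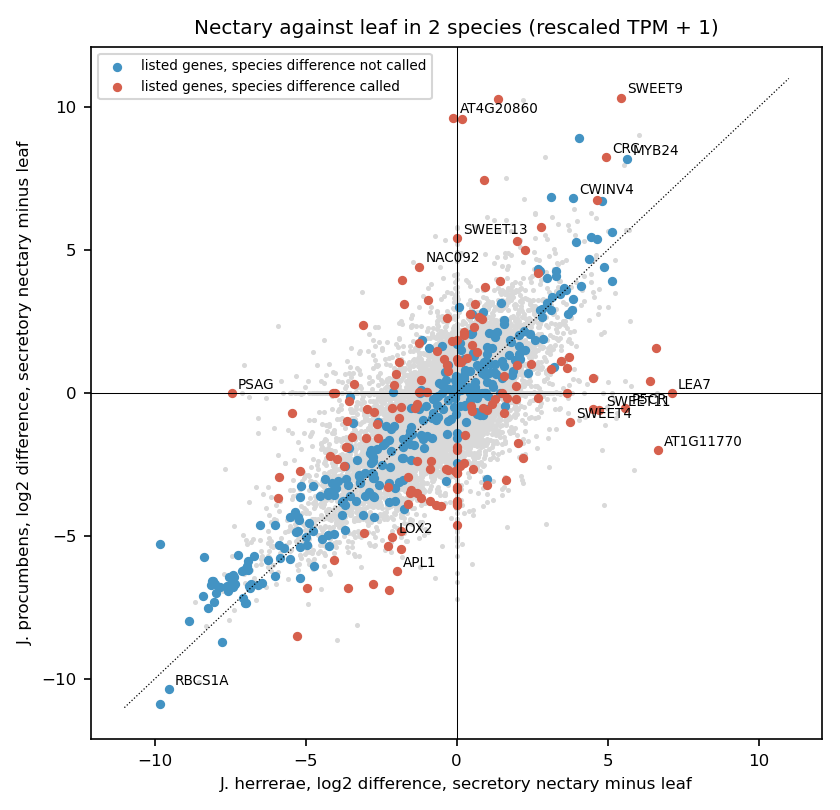
Log2 difference, secretory nectary minus leaf on rescaled TPM + 1, in herrerae (x axis) and procumbens (y axis), 1 point per locus, with listed genes in red where the species difference was called and blue where it was not; the dotted line marks equal differences. The 4 abundant berberine bridge enzyme-like loci lie near 0 to 1.37 in herrerae and between 7.46 and 10.27 in procumbens, and SWEET11, SWEET4 and P5CR lie on the herrerae side.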

How the data were processed

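RNA was measured in 23 libraries from stranded mRNA kits, per the labels' protocols, and the submitters' processing notes name kallisto 0.46.1. The deposited values, held here as a score, are TPM that the authors rounded to whole numbers for 13170 Arabidopsis loci. The reference and its matching to loci were not given in the sources used here.

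Values were rescaled by median ratios, a correction for composition, and tested as log2(TPM + 1), a pseudocount of 1, with limma 3.58.1 in R 4.3.3 (variance trend, 1 mean for each of 8 groups, 12 residual degrees of freedom). Differences and SEs are on that scale, which understates the change of low genes. Loci at 1 TPM or more in at least 2 libraries were tested (13075 in the 20-library fit). Procumbens leaf A, pre-secretory A and post-secretory A were left out of that fit. A locus was called at a Benjamini-Hochberg adjusted p under 0.05 over all loci. Herrerae and the species difference were contrasts of the same fit. The steps were tested on simulated data. Python 3.11.15 and matplotlib 3.10.9 drew the figures.

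The members and gene lists (611 loci, 470 in the table) were chosen with earlier results of these data known. Symbols and roles are those usual for the loci in Arabidopsis, since the table gives codes only. Genes were named by a rule: some fixed genes, up to 4 called members of each list without overlap between tissues plus its most abundant one, and the loci with the highest levels and differences. Of the 188 genes it selects, 112 are described. SWEET4, SWEET11, SWEET15, SEP1, SHP2, PI, PSAG, LEA7 and AT1G11770 were added after their values were seen. Alternatives were other scalings, a pseudocount of 0.1, other filters, other sets of libraries, a replicate block and leaving out each library.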

Additional observations from a re-analysis of the deposited data

Results flagged for a closer look

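By limma's interaction test in the 20-library fit, 49 of 121 named genes were called (adjusted p under 0.05), against 30.5% of all loci tested. For these 49 genes the nectary-leaf difference was not the same in procumbens and herrerae. The naming rule took 112 of the 121, mostly for a called or large procumbens difference. That difference is part of the tested contrast, so the share among named genes cannot be read against that of all loci. Among the 49, SWEET4, SWEET11, SHP2, PI, PSAG, LEA7 and AT1G11770 had been added after their values were seen. Values here are the procumbens log2 difference minus the herrerae one, on rescaled TPM + 1. It was above herrerae for the berberine bridge enzyme-like loci AT4G20860 (9.74), AT5G44360 (9.41), AT1G26390 (8.9) and AT5G44440 (6.53). Sugar genes above herrerae were SWEET13 (5.42), SWEET9 (4.89), SUS3 (3.32), VI1 (2.78) and ERDL6 (1.73). Regulators above were CRC (3.28), SEP3 (2.99), AP1 (2.74), SHP1 (2.1) and YAB5 (1.92). The CRC nectary levels overlapped between species, at 2054 and 2358 TPM in procumbens and 3458, 2134 and 1491 in herrerae. Its leaf levels did not, at 5 and 4 TPM in procumbens and 66 and 127 in herrerae. Herrerae leaves also held SWEET9 at 218 and 424 TPM. The origin of these leaf levels was not tested. Others above were PSAG (7.45), NAP (5.75), NAC092 (5.66), AT2G14900 (4.89), NIA2 (4.87), PIP1;2 (4.2), OAT (2.95), NYE1 (2.48), SNAP33 (1.77), ERS1 (1.76) and AHA2 (1.31).

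It was below herrerae for AT1G11770 (−8.65), LEA7 (−7.12), P5CR (−6.11), SWEET11 (−5.32), SWEET4 (−4.76), SWEET16 (−3.92), PI (−4.01), SHP2 (−3.65), ProT2 (−3.24) and C/VIF2 (−2.27). Starch, plastid and surface genes below were APL1 (−4.26), LDA (−1.94), GLDH1 (−4.66), PORA (−3.92), FBA1 (−3.22), LUT1 (−1.83), GLN2 (−1.86), FSD1 (−2.48), SDD1 (−4.6) and CER6 (−3.43). Jasmonate genes below were AOC4 (−4.25), LOX3 (−3.63) and LOX2 (−2.92), and TIP1;1 was at −2.89. With all 23 libraries the count over all loci was 379 rather than 3986. SWEET13, SWEET16, SDD1 and AT2G14900 were listed at 0 in the herrerae secretory and leaf libraries, and SHP2, PSAG and LEA7 in the 4 procumbens libraries. AT5G44360 was near 0 in herrerae, at 3, 0 and 0 TPM in secretory and 0 and 1 in leaf libraries. GLDH1 stood at 0 in every herrerae secretory library and at 2 and 4 TPM in its leaves.

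Leaf A, which the comparison does not use, held nectary transcripts: SWEET9 stood at 7042 TPM and CRC at 1077 TPM there, against 28 and 11 and 5 and 4 in leaf B and C.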

How the results depend on the processing

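No called named gene changed direction under any alternative run, and SWEET11, not called, went from −0.59 to 0.38 without leaf C. The number of procumbens calls (7782) stayed within 1.5 times under unscaled TPM (6947), upper quartile scaling (7788), a pseudocount of 0.1 (7507), no filter (7848), a mean of at least 5 TPM (6539) and the 4 libraries alone (7644), and was 6462 to 6813 when each of the 4 libraries was left out, the lone library then being assumed to vary like the other groups. With a replicate block by letter it was 7602; the groups share the letter B only, so whether letters pair samples could not be checked. The procumbens count was 5352 with pre-secretory A and post-secretory A put back and leaf A still out. With all 23 libraries, leaf A included, it fell to 3065 (1286 higher, 1779 lower), herrerae calls to 4682 (1836 and 2846) and calls of a species difference to 379 (187 above and 192 below in procumbens). Under unscaled TPM herrerae had 1315 loci higher and the species difference 518 below. Of 121 named genes, 47 lost their call with leaf A kept, 13 with pre-secretory A and post-secretory A put back, and 2 to 6 without 1 library; AT1G11770 lost it with a pseudocount of 0.1 (adjusted p = 0.0902) and ACO4 (0.0541) and SAG12 (0.0694) with the 4 libraries alone. Depth is not known from TPM, so levels of a few TPM have no stated error beyond the spread of 2 libraries.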
